A study of Mus musculus with 15 samples.

Results

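The genes of the TGF-beta receptors and their SMAD signal transducers were followed in MLL-ENL-transformed mouse cells that kept or lost C/EBPα and C/EBPβ. The set holds 9 genes, picked by symbol with earlier results of these data known, out of 53379 genes with a row in the table. They are the ligand gene Tgfb1, the receptor genes Tgfbr1 and Tgfbr2, the transducer genes Smad2, Smad3 and Smad4, and the genes of 3 inhibitors, Smad7, Ski and Skil. All 9 passed the filter on low values, and the fewest reads that any of them had in a library was 26, for Smad3.

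TGF-beta is a secreted cytokine that is held latent until it is released. It binds the type II receptor encoded by Tgfbr2, which recruits and phosphorylates the type I receptor encoded by Tgfbr1. The type I receptor phosphorylates SMAD2 and SMAD3, which join SMAD4 and enter the nucleus to regulate genes. SMAD7 blocks the receptor, and SKI and its relative SnoN, encoded by Skil, hold SMAD complexes in a repressive state. In blood-forming cells the pathway is known for restraining the growth of stem and progenitor cells. C/EBPα and C/EBPβ are transcription factors of the myeloid lineage, and MLL-ENL is a leukemic fusion protein.

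RNA was sequenced from 5 groups of 3 libraries. All cells were fetal liver cells transformed by MLL-ENL and grown in IL-3, and lines C1 and C2 came from different mice with floxed Cebpa and Cebpb alleles. WT cells kept both genes and carry no added gene in the labels, dKO cells are Cebpa and Cebpb KO and express GFP from the empty vector, and LAP* cells (labelled LAPS) are Cebpa and Cebpb KO cells that express GFP and the rat C/EBPβ isoform LAP*. LAP* libraries were analysed for C1 only. Each line is 1 clone and its 3 RNA samples were taken at different times, so that p-values measure the spread between samples of 1 line. The Cre treatment, the recloning, the GFP vector and the loss of the C/EBP genes cannot be told apart in dKO against WT cells. Nor can the selection of rare surviving clones or the higher level of Cebpe, a related C/EBP gene, given below.

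Libraries held 9212237 to 13613500 reads on genes (median 11885279). Cebpa and Cebpb were listed at 0 in all 6 dKO libraries, against medians of 964 and 1411 normalized reads in C1 WT cells and of 1969 and 1413 in C2 WT cells. The row of Cebpb held 2538 to 4216 normalized reads in LAP* cells, whose transgene is of rat origin, and Cebpa held at most 0.92. Cebpe had 370.9 to 471.7 normalized reads in C1 WT, 2022 to 2272 in C1 dKO and 1653 to 2106 in LAP* cells. In C2 it had 497 to 517 in WT and 2120 to 2222 in dKO cells, so that it stood higher in the dKO cells of both clones. Myeloid progenitor markers were present in every library, with summed levels of 53605 to 156562 normalized reads over 7 genes. The lymphoid markers summed to at most 13.6 normalized reads over 5 genes, and of the hepatocyte markers Alb, Apoa1 and Ttr were at or under 3 reads in every library. The fourth hepatocyte marker, the alpha-fetoprotein gene Afp, had 27.1 to 36.1 normalized reads in C1 WT, 7.06 to 10.5 in C1 dKO, 4.61 to 9.14 in LAP*, 106.3 to 164.6 in C2 WT and 72.9 to 83.7 in C2 dKO cells, and was called lower in the dKO cells of both clones and higher in C2 WT than in C1 WT cells. Of the stromal and endothelial markers, Col3a1 and Cdh5 were listed at 0 in every library, while Pdgfrb had 1.83 to 12.6 normalized reads in WT cells and 45.3 to 107 in dKO and LAP* cells, and was called higher in the dKO cells of both clones. The part of Afp and Pdgfrb in the differences below was not tested. No pair of libraries of 1 group agreed within counting noise, and replicate 3 of C1 WT cells lay farthest from the other libraries of its group.

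Levels and differences are given below in normalized reads, which are read counts divided by 1 size factor per library. Differences were tested with limma on log2(normalized reads + 1) over 12673 genes, and "called" means a Benjamini-Hochberg adjusted p under 0.05. The comparisons share libraries (C1 dKO cells enter both the dKO and the LAP* comparison, and WT cells of each line enter several), so they are not independent of each other.

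**Figure D1:**
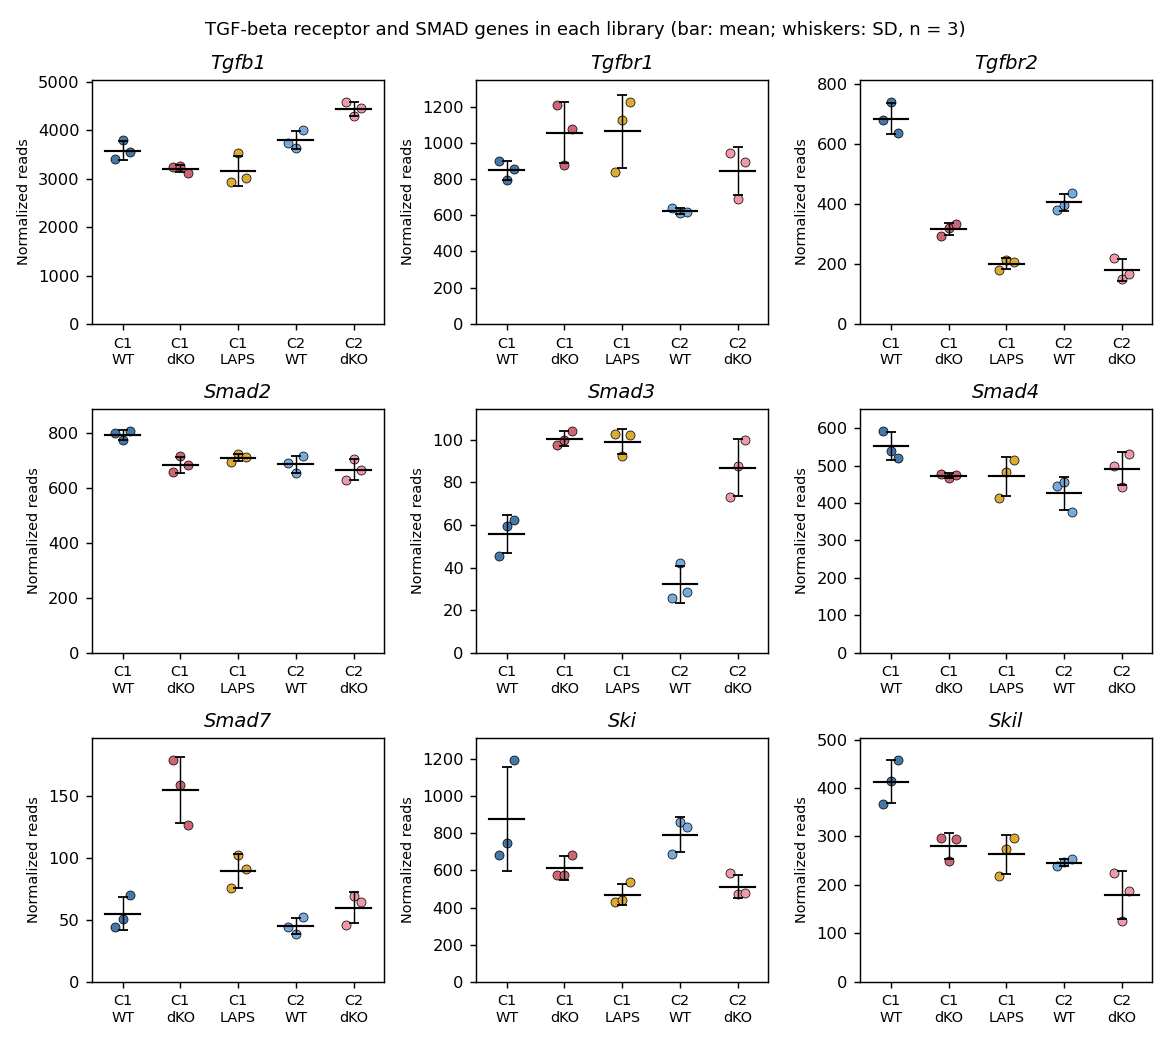
Normalized reads of the 9 genes (y axis, from 0) in each of the 15 libraries, by group on the x axis, with points for libraries, bars for means and whiskers for the SD of 3 libraries. Tgfbr2 was 635 to 739.6 in C1 WT cells and 179.8 to 214 in LAP* cells, while Smad3 was higher in every dKO library than in any WT library.

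Per kilobase of exon the ligand gene was the most abundant. Over the 15 libraries Tgfb1 averaged 721 normalized reads per kb, Tgfbr1 136, Smad4 130, Ski 117 and Smad2 80.6. Tgfbr2 averaged 43.6, Skil 28.5, Smad7 17.9 and Smad3 13.5. The genes that were low per kb were also the ones that varied most: the highest library over the lowest was 4.91 for Tgfbr2, 4.61 for Smad7, 4.02 for Smad3 and 3.63 for Skil. The same ratio was 2.78 for Ski, 2.0 for Tgfbr1, 1.57 for Smad4, 1.56 for Tgfb1 and 1.29 for Smad2.

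Of the 9 genes, 2 were called higher in C1 dKO than in C1 WT cells (Smad3, Smad7) and 4 lower (Tgfbr2, Smad2, Ski, Skil), where 17.1% and 19.9% of all genes tested were called. In C2, 3 were called higher (Tgfb1, Tgfbr1, Smad3) and 3 lower (Tgfbr2, Ski, Skil), against 17.4% and 20.1% of all genes. Tgfbr2, Ski and Skil were thus lower and Smad3 higher in the dKO cells of both clones. The median difference of the 9 genes was -0.21 in C1 and 0.21 in C2 on the log2 scale, beside -0.01 and -0.03 over all genes tested. The count of 6 called genes fell to 3 in C1 without replicate 3 of C1 WT cells, and to 3 in C2 without replicate 1 or 2 of C2 WT or replicate 3 of C2 dKO cells.

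**Figure D2:**
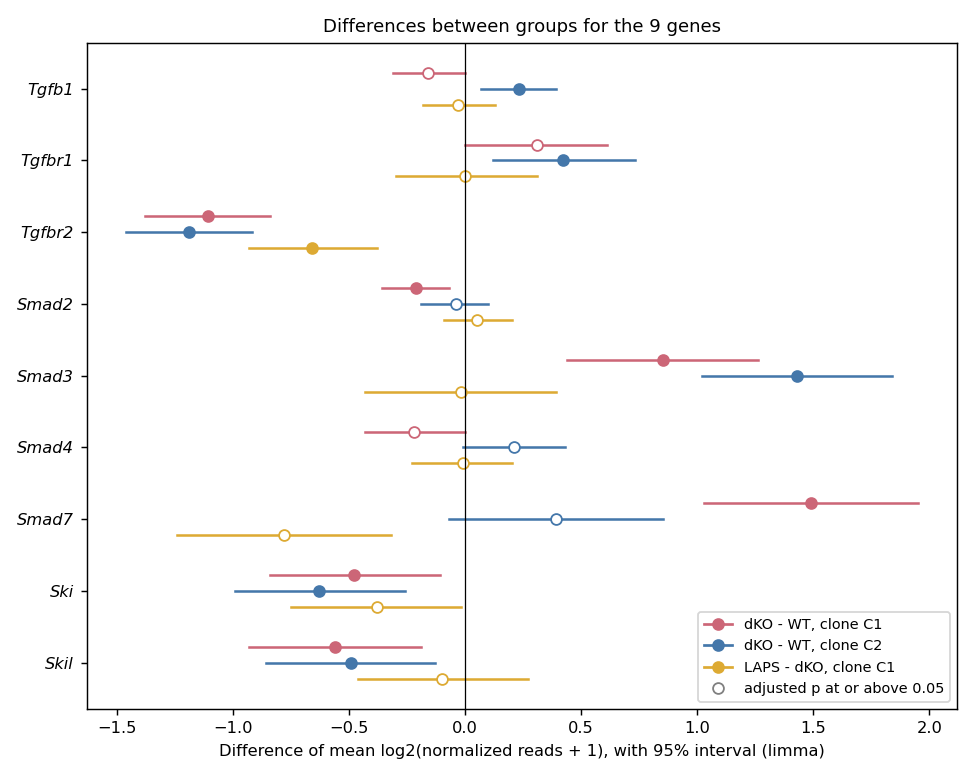
Differences of mean log2(normalized reads + 1) between groups (x axis) for each of the 9 genes (y axis), with 95% intervals from limma for dKO minus WT in clones C1 and C2 and for LAP* minus dKO in clone C1 (labelled LAPS - dKO). Filled points have an adjusted p under 0.05. The intervals of Tgfbr2 lie below 0 in all 3 comparisons, and those of Smad3 above 0 in both dKO comparisons.

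The type II receptor gene Tgfbr2 was lower in dKO than in WT cells of both clones and lower again in LAP* cells. It lies on chromosome 9 from 116084293 to 116175360 on the minus strand (mm10, GENCODE vM21, as for all positions of genes here). In C1 the WT libraries had 678, 739.6 and 635 normalized reads, and the dKO libraries had 294, 319.9 and 334. In C2 the WT libraries had 380.4, 396 and 437, and the dKO libraries had 221, 151 and 165. No dKO library of either clone reached the lowest WT library of its own clone. Fewer cells of a type and less RNA per cell cannot be told apart in such bulk samples.

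Tgfbr2 fell by 1.11 ± 0.13 (SE) on the log2 scale in C1, which is 2.16-fold lower (adjusted p = 5.1e-06, limma), and by 1.19 ± 0.13 in C2, 2.28-fold lower (adjusted p = 3e-06). No difference of the fall between the clones was detectable, with an estimate of -0.08 (95% interval -0.47 to 0.31). The call held in both clones under all 8 alternatives and without any 1 of the 15 libraries.

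LAP* did not bring the Tgfbr2 level back toward WT. LAP* libraries had 179.8, 214 and 208 normalized reads, all below the lowest C1 dKO library. The difference from dKO cells was -0.66 ± 0.13 on the log2 scale, 1.58-fold lower (adjusted p = 0.0076), and the difference from WT cells was -1.77 ± 0.13, 3.4-fold lower (adjusted p = 3.8e-08). Tgfbr2 was the only one of the 9 genes called between LAP* and dKO cells, where 3.03% of all genes were called lower and 1.43% higher. Its adjusted p ran from 0.00017 to 0.035 over the 8 alternatives.

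The monocyte and macrophage marker list summed to 27725 to 38730 normalized reads in C1 WT, 18947 to 21608 in C1 dKO and 19055 to 22188 in LAP* cells, and all 4 markers tested were called lower in C1 dKO cells. In C2 the sums were 13701 to 16666 in WT and 13135 to 15181 in dKO cells, with overlapping ranges. Most of these reads were of Ly6c2 (12834 to 16176 in C2 WT cells), and the other markers did not move together: Cd14 was called lower in C2 dKO cells (254 to 581 in WT and 56.4 to 120 in dKO libraries), Adgre1 was called higher (200.2 to 418 and 988 to 1676) and Csf1r was not called. Between LAP* and dKO cells the median difference of the 4 was -0.1. The 7 myeloid progenitor markers, of which 5 were called higher in dKO cells of each clone, summed to 63773 to 65903 in C1 WT and 134402 to 156562 in C1 dKO cells, and to 53605 to 57179 in C2 WT and 102695 to 119968 in C2 dKO cells. Mpo and Elane made up most of these sums. In C1, Mpo had 12694 to 15671 in WT and 59156 to 77194 in dKO cells, and Elane 34951 to 40211 and 60210 to 69353. The C1 ranges of Ptprc and Spi1 overlapped. The part of the markers in the difference of Tgfbr2 and of the other genes called in both clones was not tested.

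The promoter of Tgfbr2 is shown because the gene was lower in the dKO cells of both clones. These cells lack 2 C/EBP factors but held more RNA of another, Cebpe. It spans chr9:116175314-116175613 on the minus strand (RefSeq, GRCm38.p6), from 250 bases before the start site to 50 bases after it. Capitals mark the matches to the C/EBP motif TTGCNNAA and to the SMAD motif CAGAC, searched on both strands, and the ETS motif CCGGAA had no match.
Tgfbr2: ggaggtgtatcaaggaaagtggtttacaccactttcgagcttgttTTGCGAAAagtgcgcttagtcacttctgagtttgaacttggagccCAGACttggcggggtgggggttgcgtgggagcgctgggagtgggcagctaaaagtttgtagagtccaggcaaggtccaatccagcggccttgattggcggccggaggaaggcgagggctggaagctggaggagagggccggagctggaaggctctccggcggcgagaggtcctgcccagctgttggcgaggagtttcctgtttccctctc
The C/EBP match lies at -205 to -198 and the SMAD match at -160 to -156 from the start site. Of 32817 promoters of the same length, 10.8% hold the C/EBP letters, 49.6% the SMAD letters and 14.9% the ETS letters. A match is a description of letters and not of binding.

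The type I receptor gene Tgfbr1 (chromosome 4, 47353222 to 47414931) lay higher on average in dKO cells of both clones and was called in C2. C1 WT libraries had 898, 793 and 853 normalized reads and C1 dKO libraries 1211, 878 and 1078, with overlapping ranges and a difference of 0.31 ± 0.14 that was not called (adjusted p = 0.11). C2 WT libraries had 641, 612 and 619 and C2 dKO libraries 945, 692 and 895, all above the WT range, and Tgfbr1 rose by 0.42 ± 0.14 (adjusted p = 0.03). The C2 call was lost without replicate 1, 2 or 3 of C2 WT cells (adjusted p = 0.055, 0.08 and 0.073) and without replicate 1 or 3 of C2 dKO cells (0.12 and 0.1), in a range of 0.0082 to 0.12 over the 15 leave-one-out fits. The C1 value became a call without replicate 2 of C1 dKO cells (0.43, adjusted p = 0.039), in a range of 0.039 to 0.34, and with quantile normalization (0.39, adjusted p = 0.04), where the other alternatives reached up to 0.16. The difference between the clones was 0.12 (95% interval -0.32 to 0.55). LAP* libraries had 839, 1126 and 1226 and did not differ detectably from dKO cells (0.00, 95% interval -0.3 to 0.31).

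The ratio of the receptor genes therefore changed, more through the fall of Tgfbr2 than through Tgfbr1, which was not called in C1. Between LAP* and dKO cells only Tgfbr2 differed detectably. Per kb, Tgfbr1 stood at 1.56 ± 0.19 (SD, n = 3) times Tgfbr2 in C1 WT cells, at 4.21 ± 0.869 in C1 dKO cells and at 6.61 ± 0.77 in LAP* cells. The C2 ratio was 1.94 ± 0.168 in WT and 5.97 ± 0.735 in dKO cells. The libraries of the groups compared did not overlap, and an exact two-sided permutation test gave p = 0.1 for dKO against WT cells in each clone and for LAP* against dKO cells, the smallest value that 3 against 3 libraries allow. This ratio was chosen after the values of its 2 genes were seen.

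**Figure D3:**
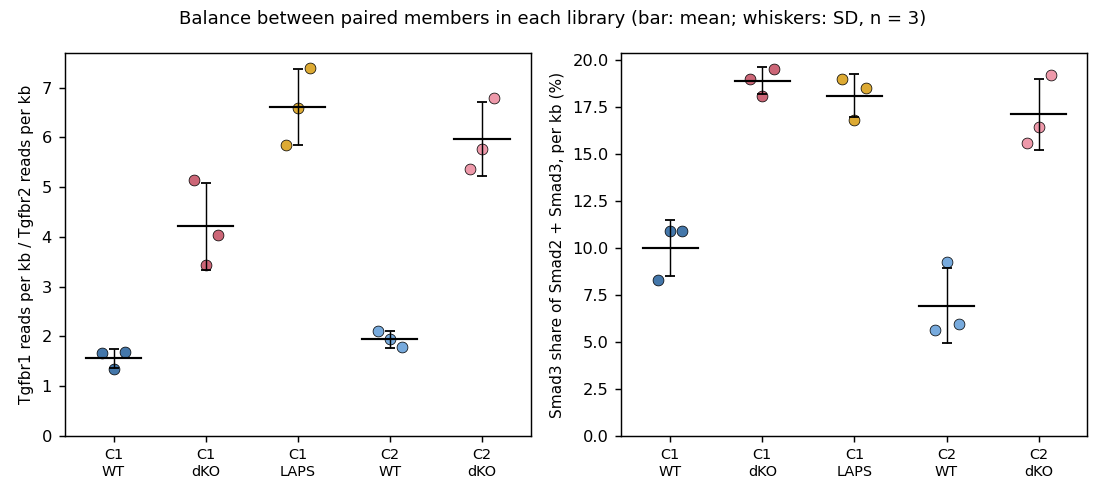
Left, Tgfbr1 reads per kb over Tgfbr2 reads per kb, and right, the Smad3 share of Smad2 plus Smad3 in percent, both per kb of exon (y axes, from 0), in each library by group (x axis). Bars are means and whiskers the SD of 3 libraries. The ratio of the receptors is 1.34 to 2.11 in the WT libraries and 3.44 to 7.39 in the others.

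The ligand gene Tgfb1 (chromosome 7, 25687002 to 25705077) differed little. C1 WT libraries had 3403, 3794 and 3546 normalized reads, C1 dKO libraries 3246, 3259 and 3121 and LAP* libraries 2931, 3521 and 3020.4. Those of C2 had 3747, 3632 and 3999 in WT and 4585, 4298 and 4451 in dKO cells. In C1 the dKO libraries lay just below the WT libraries (-0.16 ± 0.07, adjusted p = 0.11), and in C2 they lay above (0.23 ± 0.07, adjusted p = 0.022). The difference between the clones was called (0.39 ± 0.1, adjusted p = 0.011), but quantile normalization lowered it to 0.24 and lost the call (adjusted p = 0.094), the highest of the 8 alternatives, whose lowest was 0.0033. The C2 call was lost without replicate 1 or 2 of C2 WT cells (adjusted p = 0.06 and 0.088) or without replicate 1 or 3 of C2 dKO cells (0.072 and 0.058), in a range of 0.01 to 0.088. The other ligand genes, Tgfb2 and Tgfb3, did not pass the filter and had at most 3 reads in any library.

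Smad3, which encodes a DNA-binding transducer, rose in the dKO cells of both clones. The gene spans 63646767 to 63757994 of chromosome 9. WT libraries of C1 had 45.5, 59.5 and 62.2 normalized reads and C1 dKO libraries 97.4, 99.7 and 104. WT libraries of C2 had 25.9, 41.9 and 28.4 and C2 dKO libraries 73.2, 87.5 and 99.8. Every dKO library lay above every WT library of both clones.

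The rise was 0.85 ± 0.19 on the log2 scale in C1, 1.8-fold (adjusted p = 0.0024), and 1.43 ± 0.19 in C2, 2.69-fold (adjusted p = 2.7e-05). Both calls held under all 8 alternatives and without any 1 library. The difference between the clones was not called (0.58, 95% interval 0.00 to 1.15, adjusted p = 0.13), but became a call without replicate 2 of C2 WT cells (0.78, adjusted p = 0.031), in a range of 0.031 to 0.26. LAP* libraries had 103, 92.2 and 102, overlapping the dKO range, with a difference from dKO cells of -0.02 (95% interval -0.43 to 0.39) and from WT cells of 0.83 ± 0.19 (adjusted p = 0.0032).

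The Smad3 promoter is shown as that of the one gene called higher in both clones. It spans chr9:63757945-63758244 on the minus strand (RefSeq, GRCm38.p6), and none of the letters searched for in the Tgfbr2 promoter was found in this window, so no base is in capitals.
Smad3: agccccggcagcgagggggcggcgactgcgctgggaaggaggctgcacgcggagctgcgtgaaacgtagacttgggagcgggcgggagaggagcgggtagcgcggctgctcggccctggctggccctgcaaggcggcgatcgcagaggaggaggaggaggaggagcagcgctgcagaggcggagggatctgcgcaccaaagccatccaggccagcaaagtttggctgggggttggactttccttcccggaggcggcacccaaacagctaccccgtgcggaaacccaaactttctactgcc
The GC content was 67.7% here and 59.0% in the Tgfbr2 promoter. The promoters of Tgfb1 and Ski and the first of 2 listed for Tgfbr1 had no match to the 3 motifs either, and the second of Tgfbr1 had 1 match to the SMAD letters. No result is given for the promoters of Smad2, Smad4, Smad7 and Skil.

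Smad2, the partner transducer of SMAD3, was the steadiest gene of the set. On chromosome 18 it spans 76241580 to 76310963. WT libraries of C1 had 799, 772 and 807 normalized reads and C1 dKO libraries 657, 714 and 681. In C2 there were 690.1, 653 and 715 in WT and 628, 706 and 665 in dKO libraries. The C1 difference of -0.21 ± 0.07, 1.16-fold lower, was called (adjusted p = 0.022), and the C2 difference of -0.04 was not (adjusted p = 0.65). The C1 call was lost without replicate 1 or 3 of C1 WT cells (adjusted p = 0.063 and 0.054), without replicate 1 or 3 of C1 dKO cells (0.079 and 0.058), with quantile normalization (0.13) and in a fit of only the groups compared (0.051), with a range of 0.019 to 0.079 over the leave-one-out fits and of 0.019 to 0.13 over the 8 alternatives. LAP* libraries had 695, 722 and 712, below the C1 WT libraries and not called against them (-0.16, adjusted p = 0.087).

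Since Smad3 rose and Smad2 hardly moved, the share of Smad3 in the sum of both changed. Per kb, Smad3 made up 10.0% ± 1.5 (SD, n = 3) of Smad2 plus Smad3 in C1 WT cells, 18.9% ± 0.709 in C1 dKO and 18.1% ± 1.12 in LAP* cells. In C2 it made up 6.92% ± 2.01 in WT and 17.1% ± 1.89 in dKO cells. The groups of dKO and WT libraries did not overlap in either clone (exact two-sided permutation test, p = 0.1, the smallest possible), and LAP* and dKO libraries did overlap (p = 0.4). This share, too, was chosen after the values were seen.

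Smad4, the common partner of the receptor-regulated SMADs, lies on chromosome 18 from 73639009 to 73703780. In C1 its level was 593, 539 and 521 normalized reads in WT libraries, with C1 dKO libraries at 478, 467 and 476 and LAP* libraries at 413, 484 and 515. C2 WT libraries had 444, 456 and 377 and C2 dKO libraries 500.1, 443 and 531. Neither dKO comparison was called (-0.22, adjusted p = 0.11 in C1, and 0.21, adjusted p = 0.12 in C2). The difference between the clones was called (0.42 ± 0.14, adjusted p = 0.038). That call was lost without replicate 1 of C1 WT cells (0.095), replicate 1, 2 or 3 of C1 dKO cells (0.057, 0.068 and 0.064), replicate 3 of C2 WT cells (0.11) or replicate 1 or 3 of C2 dKO cells (0.069 and 0.1), in a range of adjusted p of 0.021 to 0.11. It was also lost with no filter (0.057), with quantile normalization (0.063) and with the replicate block (0.058), in a range of 0.033 to 0.063 over the 8 alternatives.

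Smad7, the inhibitory SMAD that the pathway itself induces, rose in C1 and not detectably in C2. The gene spans 75367529 to 75395935 of chromosome 18. Among C1 libraries, WT cells had 44.2, 50.5 and 70.3 normalized reads and dKO cells 179, 158 and 126. Among C2 libraries, WT cells had 43.8, 38.8 and 52.2 and dKO cells 46.0, 69.0 and 64.4. The C1 groups stood apart and the C2 groups overlapped.

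The C1 difference was 1.49 ± 0.22 on the log2 scale, 2.8-fold (adjusted p = 5.3e-05), and the C2 difference was 0.39 (95% interval -0.07 to 0.85, adjusted p = 0.17). The test of the difference between the clones was called (-1.09 ± 0.31, adjusted p = 0.013) and held under all 8 alternatives and without any 1 library. LAP* libraries had 75.2, 102 and 91.2, between the WT and dKO libraries of C1 and apart from both. LAP* against dKO cells was not called (-0.78 ± 0.22, adjusted p = 0.054), though edgeR (0.039), DESeq2 (0.014) and a pseudocount of 5 (0.044) called it, in a range of 0.014 to 0.11 over the 8 alternatives. It was also called without replicate 3 of C1 WT cells (0.033) or replicate 1 of C2 dKO cells (0.046), in a range of 0.033 to 0.17. LAP* against WT cells was called (0.71 ± 0.22, adjusted p = 0.019), a call lost in a fit of only the groups compared (0.068) and without replicate 1 or 2 of C1 WT cells (0.09 and 0.058) or replicate 2 or 3 of LAP* cells (0.078 and 0.054).

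Smad7 and markers of eosinophils were both higher in C1 dKO than in C1 WT cells. The markers were also called in C2 dKO cells and between LAP* and dKO cells, where Smad7 was not. The 4 genes of that list (Prg2, Epx, Il5ra, Ear6) were at or under 3 reads in C1 WT cells, with sums of 0.0 to 2.0 normalized reads, and summed to 7589 to 14880 in C1 dKO, 646 to 1615 in LAP*, 3.0 to 10.1 in C2 WT and 203 to 316 in C2 dKO cells. All 4 were called higher in the dKO cells of each clone and lower in LAP* than in dKO cells. The 5 mast cell and basophil markers, with Fcer1a at or under 3 reads throughout, summed to 98.8 to 134 in C1 WT, 2642 to 3042 in C1 dKO, 887 to 1135 in LAP*, 103 to 129 in C2 WT and 536 to 778 in C2 dKO cells. Of the 4 tested, 4 were called higher in C1 dKO cells, and 2 were called higher and 1 lower in C2 dKO cells. The one called lower in C2 was Ms4a2, a subunit of the IgE receptor, with 69.7, 68.2 and 47.6 normalized reads in C2 WT and 5.23, 12.6 and 6.44 in C2 dKO libraries. Of the megakaryocyte and platelet markers, 2 of 4 tested were called higher (Itga2b, Gp1bb) and 2 lower (Pf4, Ppbp) in C1 dKO cells, and 1 higher (Itga2b) in C2 dKO cells. The 5 genes of that list summed to 33.6 to 59.5 in C1 WT, 211.8 to 309.4 in C1 dKO, 59.9 to 80.2 in LAP*, 11.0 to 46.7 in C2 WT and 122.5 to 220.7 in C2 dKO cells, with Gp9 at or under 3 reads in WT cells. Itga2b, an integrin gene, made up most of the dKO sums, with 156 to 264 in C1 and 109.8 to 187 in C2. The part of these 3 lists in the differences of Smad3 and Smad7 was not tested.

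Ski, the corepressor gene first known from a viral oncogene, was lower in the dKO cells of both clones. Its position is chromosome 4, 155154075 to 155222592. C1 WT libraries had 681, 749.5 and 1196 normalized reads and C1 dKO libraries 576, 574 and 685, so that the ranges met. C2 WT libraries had 687, 859 and 834 and C2 dKO libraries 584, 474 and 481, which did not overlap. The C2 difference was -0.63 ± 0.17, 1.55-fold lower (adjusted p = 0.0088), and held under every alternative and without any 1 library.

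The C1 difference of Ski was -0.48 ± 0.17 (adjusted p = 0.039) and rested on few libraries. Without replicate 3 of C1 WT cells, the library with 1196 normalized reads of Ski, it was -0.23 (adjusted p = 0.19), and without replicate 1 or 2 of C1 dKO cells the adjusted p was 0.1 and 0.11, in a range of 0.013 to 0.19. It was also lost with no filter (0.055), with quantile normalization (0.072) and in a fit of only the groups compared (0.14). LAP* libraries had 429.7, 442 and 537, all below the dKO libraries (-0.38, adjusted p = 0.25) and the WT libraries (-0.86 ± 0.17, 1.81-fold lower, adjusted p = 0.001).

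Skil, which encodes SnoN, lies on chromosome 3 from 31095058 to 31122577. Like Ski, it was lower in the dKO cells of both clones. C1 WT libraries had 368, 414 and 459 normalized reads, C1 dKO libraries 297, 249 and 296 and LAP* libraries 218, 275 and 297. C2 WT libraries had 238, 247 and 253 and C2 dKO libraries 225, 126 and 187. No dKO library reached the WT libraries of its own clone. The difference was -0.56 ± 0.17 in C1, 1.47-fold lower (adjusted p = 0.019), and -0.49 ± 0.17 in C2, 1.41-fold lower (adjusted p = 0.035).

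Leaving out libraries changed the Skil calls. In C1 the call was lost without replicate 3 of C1 WT cells (adjusted p = 0.064) or replicate 2 of C1 dKO cells (0.079), in a range of 0.0033 to 0.079. In C2 it was lost without replicate 2 of C2 dKO cells, the library with 126 normalized reads of Skil (-0.26, adjusted p = 0.19), without replicate 3 of C2 dKO cells (0.051) and without replicate 1, 2 or 3 of C2 WT cells (0.061, 0.081 and 0.089). Quantile normalization (0.064) and a fit of only the groups compared (0.11) lost the C2 call too. LAP* cells did not differ detectably from dKO cells (-0.1, 95% interval -0.46 to 0.27) and stood below WT cells (-0.65 ± 0.17, adjusted p = 0.0081).

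Against C1 WT cells, LAP* cells had 2 of the 9 genes called higher (Smad3, Smad7) and 3 lower (Tgfbr2, Ski, Skil), where 14.2% and 18.3% of all genes were called. The median difference of the 9 genes was -0.18, beside 0.00 over all genes. Among the genes not called, Tgfb1 became a call without replicate 2 of LAP* cells (-0.27, adjusted p = 0.011), and Tgfbr1 without replicate 1 of LAP* cells (0.47, adjusted p = 0.017) or with quantile normalization (0.4, adjusted p = 0.038). Between LAP* and dKO cells the median was -0.03.

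The dKO minus WT difference was called different between the clones for 3 of the 9 genes. It was higher in C2 than in C1 for Tgfb1 and Smad4 and lower for Smad7. Over all genes tested, 15.1% were called higher and 14.3% lower, so the count is near those shares. For Tgfbr2, Ski and Skil the intervals of the difference between the clones included 0 (-0.47 to 0.31, -0.67 to 0.36 and -0.46 to 0.59).

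The WT lines themselves differed. Of the 9 genes, 6 were called lower and 0 higher by limma, edgeR or DESeq2 in C2 WT than in C1 WT cells, where 21.3% of all genes were called lower and 19.7% higher, and no member was higher at an unadjusted p under 0.05. Tgfbr2 was 1.69-fold lower (-0.76 ± 0.13, adjusted p = 0.00018), Smad3 1.74-fold lower (-0.8 ± 0.19, adjusted p = 0.0033) and Skil 1.67-fold lower (-0.74 ± 0.17, adjusted p = 0.0027). Tgfbr1 (-0.44, adjusted p = 0.023), Smad4 (-0.37, adjusted p = 0.008) and Smad2 (-0.21, adjusted p = 0.022) were the other 3. Without single WT libraries the adjusted p rose to 0.073 for Tgfbr1 (replicate 1 of C1 WT cells), to 0.052 for Smad4 (replicate 3 of C2 WT cells) and to 0.095 for Smad2 (replicate 2 of C2 WT cells). Tgfbr1 also lost the call without replicate 3 of C1 WT (0.05) or replicate 2 or 3 of C2 WT cells (0.062 and 0.058), and Smad2 without replicate 1 or 3 of C1 WT cells (0.058 and 0.06) or with quantile normalization (-0.16, adjusted p = 0.078). C2 dKO cells had the lowest mean level of Tgfbr2 (178.9 ± 37.0), and the mean of C2 WT cells was 404.6 ± 29.2, against 684 ± 52.6 in C1 WT cells (SD, n = 3).

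Markers of cell types differed between the WT lines as well. Of the 4 monocyte and macrophage markers tested, 3 were called lower in C2 WT than in C1 WT cells, with a median difference of -2.06 on the log2 scale. Csf1r, the receptor gene for the macrophage growth factor, had 3237 ± 381 normalized reads in C1 WT and 45.9 ± 16.6 in C2 WT cells (SD, n = 3). Of the 7 myeloid progenitor markers, 4 were called lower, with a median of -0.27. Their part in the lower level of the 6 genes in C2 WT cells was not tested.

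The order of the groups varied among the genes, though Smad3 and Smad7 shared one. For Tgfbr2 the order of means was C1 WT, C2 WT, C1 dKO, LAP* and C2 dKO cells, and only the last 2 overlapped. For Smad3 it was C1 dKO, LAP*, C2 dKO, C1 WT and C2 WT cells, and the first 3 overlapped with their neighbours. Smad7 had the same order of means, with overlap among the last 3. For Smad4 every neighbouring pair of groups overlapped.

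Across the 15 libraries Tgfbr2 went with both corepressor genes, with Pearson's r of 0.82 with Ski and 0.8 with Skil. Smad3 went with Tgfbr1 (0.74) and Smad7 (0.71) and against Ski (-0.6) and Tgfbr2 (-0.59). These values describe 5 groups of libraries rather than 15 independent cultures and carry no test. Of all genes tested, those most like Tgfbr2 were Tmem38b (r = 0.966), Gpnmb (0.965) and Pcyox1 (0.959). Pcyox1 had 3150 ± 60.4 normalized reads in C1 WT, 1430 ± 47.4 in C1 dKO, 1300 ± 33.6 in LAP*, 2220 ± 41.6 in C2 WT and 1020 ± 99.7 in C2 dKO cells. Those most like Smad3 were Mark3 (0.957), Nrip1 (0.956) and Rnf43 (0.951). Those most like Smad7 were Ear1 (0.945) and Ear6 (0.943), which encode eosinophil ribonucleases and are near-identical family members whose reads can be shared, and Ssbp3 (0.94). Ear6 had 783 ± 322 normalized reads in C1 dKO, 70.8 ± 18.4 in LAP* and 5.77 ± 1.84 in C2 dKO cells.

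Of 61 further genes of the pathway with a row, 45 passed the filter. In C1 dKO cells 7 were called higher and 11 lower, and in C2 dKO cells 7 higher and 13 lower, where over all genes tested 17.1% and 19.9% were called in C1 and 17.4% and 20.1% in C2. Between LAP* and dKO cells 1 was called higher and 3 lower, against 1.43% and 3.03% of all genes. Counts near these shares are no result about the pathway, and the same shares are the background of each list of 10 genes or fewer described next. The median difference was -0.06, -0.12 and -0.06. These genes were listed by function and not by how they moved, and the names below come from a rule on the adjusted p of the called genes.

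**Figure D4:**
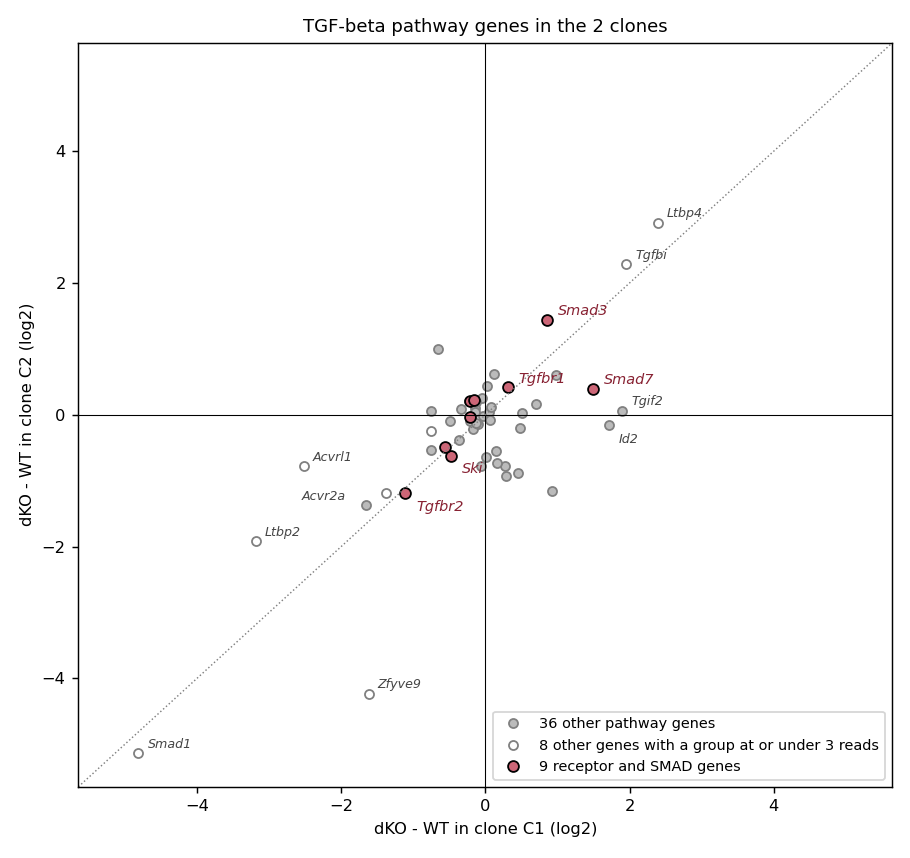
Difference of dKO minus WT in clone C1 (x axis) against clone C2 (y axis), log2 scale, for the 9 receptor and SMAD genes (red) and 44 of the 45 other pathway genes tested (1 is not shown), 36 filled grey and 8 open where a WT or dKO group had no library over 3 reads. The dotted line marks equal values, with Tgfbr2 below 0 and Smad3 above 0 on both axes and Smad7 at 1.49 in C1 and 0.39 in C2.

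Among genes of the BMP and activin arm, a parallel branch that uses SMAD1, SMAD5 and SMAD9 as well as SMAD2 and SMAD3, 1 of 10 tested was called higher and 5 lower in C1 dKO cells, and 2 higher and 4 lower in C2. Smad1 had 26.8, 26.2 and 28.5 normalized reads in C1 WT and 17.9, 48.2 and 44.9 in C2 WT libraries and was listed at 0 in all dKO and LAP* libraries. Against a floor of 3 reads per library it was at least 7.99-fold lower in C1 dKO (adjusted p = 8.3e-08, limma), at least 11.5-fold lower in C2 dKO and at least 8.91-fold lower in LAP* cells. The activin type II receptor gene Acvr2a (-1.65 ± 0.26 in C1 and -1.37 ± 0.26 in C2) and the type I receptor gene Acvr1b (-0.76 ± 0.12 and -0.54 ± 0.12) fell in both clones.

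Bmpr1a, a BMP type I receptor gene, rose in dKO cells of both clones (0.98 ± 0.16 and 0.6 ± 0.16). C1 WT libraries had 161, 188 and 139.6 normalized reads, C1 dKO libraries 386, 269.6 and 312 and LAP* libraries 57.9, 84.8 and 85.7, so that LAP* cells lay below WT (-1.1 ± 0.16). LAP* against dKO cells gave -2.08 ± 0.16 (adjusted p = 1.5e-06). The co-receptor gene Tgfbr3, betaglycan, was also called lower in LAP* than in dKO cells (-2.15 ± 0.54, adjusted p = 0.036), with 2.03, 3.69 and 3.65 normalized reads against 10.2, 23.1 and 20.3. That call was lost without replicate 2 or 3 of C1 dKO cells (adjusted p = 0.15 and 0.11) and without replicate 1, 2 or 3 of LAP* cells (0.098, 0.08 and 0.088), and with a pseudocount of 0.1 (0.054) or no filter (0.069). C1 WT libraries had 44.2, 94.7 and 22.4 normalized reads of Tgfbr3, and LAP* cells were called lower than WT cells (adjusted p = 9.8e-05, limma). C1 dKO against WT cells was not called (adjusted p = 0.058, limma), but was called in 7 of 23 other fits (range 0.014 to 0.26).

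Of 6 tested genes for latency and activation of the ligand, 1 was called higher and 3 lower in C1 dKO cells, and 1 higher and 2 lower in C2. Ltbp4, which binds latent TGF-beta in the matrix, rose from at most 1.02 normalized reads in C1 WT cells to 5.66, 10.5 and 6.18, and from 1.99, 5.24 and 0.92 in C2 WT cells to 25.1, 16.5 and 32.2. Ltbp2, of the same family, went the other way, from 18.7, 43.3 and 24.5 normalized reads in C1 WT to 1.13, 2.1 and 3.53 in C1 dKO cells (adjusted p = 0.00012). In C2 it had 1.0, 6.29 and 2.75 in WT cells and was listed at 0 in dKO cells (adjusted p = 0.0067), a call lost with a pseudocount of 5 (0.068). Nrros, which anchors latent TGF-beta on myeloid cells, fell in C1 (-0.75 ± 0.09, adjusted p = 4.7e-06) and not in C2 (0.05, adjusted p = 0.7), and this difference between the clones was called (0.8 ± 0.12, adjusted p = 0.00014). Furin, the protease that cleaves the TGF-beta precursor, fell in C2 (-0.78 ± 0.14, adjusted p = 0.0003) and the C1 value was 0.27 (adjusted p = 0.14). The C1 value was 0.42 without replicate 2 of C1 WT cells, which made it a call (0.025), and 0.39 without replicate 1 of C1 dKO cells (0.05), in a range of 0.025 to 0.4. Furin was also called lower in LAP* than in dKO cells (-0.56 ± 0.14, adjusted p = 0.03), a call lost with only the groups compared (0.059), without replicate 2 or 3 of C1 dKO cells (0.14 and 0.1) and without any 1 LAP* library (0.059 to 0.1).

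Of 8 tested genes that SMAD complexes are known to induce, leaving out the members on that list, 2 were called higher and 6 were not called in C1 dKO cells, and 1 was called higher and 1 lower in C2. Tgfbi, the TGF-beta-induced matrix protein gene, rose in C1 (37.5, 55.0 and 93.7 against 147, 231 and 339, adjusted p = 0.0024) and in C2 from 0.0, 1.05 and 0.0 to 3.14, 9.72 and 4.29 (adjusted p = 0.00069), though a pseudocount of 0.1 lost the C1 call (0.057) and edgeR the C2 call (0.055). Id2, an inhibitor of differentiation factors, rose in C1 (1.72 ± 0.4, adjusted p = 0.0028). Its C2 value was -0.15 (adjusted p = 0.8), which became -0.77 and a call without replicate 1 of C2 WT cells (adjusted p = 0.042, in a range of 0.042 to 0.97), and the difference between the clones was called (-1.87 ± 0.56, adjusted p = 0.019), except without replicate 2 or 3 of C2 WT cells (0.052 for both). Junb fell in C2 (-0.64 ± 0.18, adjusted p = 0.01), while the difference between the clones was not called (-0.65, adjusted p = 0.066). That difference was called in 6 of 23 other fits, in a range of 0.02 to 0.16: with quantile normalization (0.049), DESeq2 (0.037) or only the groups compared (0.027), and without replicate 2 of C1 WT (0.044), replicate 1 of C1 dKO (0.02) or replicate 3 of LAP* cells (0.022).

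Among the other inhibitors and corepressors, Tgif2, a SMAD corepressor gene, rose in C1 dKO cells (1.9 ± 0.24, adjusted p = 1.4e-05) from 9.37, 10.8 and 7.13 to 29.5, 42.0 and 38.8 normalized reads. In C2 it had 33.9, 52.4 and 49.5 in WT and 36.6, 49.6 and 54.7 in dKO cells, and the difference between the clones was called (-1.85 ± 0.34, adjusted p = 0.00077). Of the 9 ubiquitin ligase and deubiquitinase genes that act on receptors and SMADs, 1 was called higher and 8 were not called in C1, and 3 were called higher and 2 lower in C2. Trim33, whose product acts on SMAD4, rose in C2 (0.62 ± 0.11, adjusted p = 0.00028), with 0.12 in C1 (adjusted p = 0.39). Smurf1, a ligase for receptors and SMADs, fell in C2 (-0.78 ± 0.17, adjusted p = 0.0021), with -0.06 in C1 (adjusted p = 0.83). Usp11 rose in C1 (0.7 ± 0.15, adjusted p = 0.0014), with 0.16 in C2 (adjusted p = 0.42). Usp15, a deubiquitinase gene, was called higher in C2 (0.2, adjusted p = 0.024), a call lost in 6 of 23 other fits (range 0.0098 to 0.089).

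Of 6 genes for anchors, a phosphatase and coactivators, 1 was called higher and 2 lower in C1 dKO cells, and 3 lower in C2. Ppm1a, a phosphatase of SMAD2 and SMAD3, rose in C1 (0.48 ± 0.07, adjusted p = 7.9e-05) and was called lower in C2 (-0.2 ± 0.07, adjusted p = 0.044). The difference of Ppm1a between the clones was called (-0.68 ± 0.1, adjusted p = 0.00014). Its C2 call was lost in 13 of 23 other fits, in a range of 0.024 to 0.14: with no filter, with the replicate block, with edgeR, with DESeq2 and without any 1 library of C1 dKO, C2 WT or C2 dKO cells. Zfyve9, the anchor that presents SMAD2 and SMAD3 to the receptor, had 12.95, 48.2 and 38.5 normalized reads in C2 WT cells and 3.14, 0.0 and 0.0 in C2 dKO cells (adjusted p = 8.8e-05), and was not called in C1 (adjusted p = 0.06), except with a pseudocount of 0.1 (0.041) and without replicate 3 of C1 WT (0.029) or replicate 1 of C2 dKO cells (0.034). The other calls on that list were small and unsteady. Ep300, a coactivator gene, gave -0.34 in C1 (adjusted p = 0.028), and its call was lost in 6 of 23 other fits. Hgs, an endosomal adaptor gene, gave -0.21 in C2 (adjusted p = 0.043), lost in 13. Fkbp1a, whose product binds the type I receptor, gave -0.22 in C1 (adjusted p = 0.043), lost in 12, and 0.35 for LAP* against dKO cells (adjusted p = 0.023), lost in 4.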

How the data were processed

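RNA-seq was analysed in 15 libraries, 3 per group. Per the submitters' processing notes the authors used STAR 2.5.3a, HTSeq 0.10.0 and DESeq2 1.26.0 with mm10, and the deposited signal is a normalized read count per gene (reads over the size factor of that library). Gene annotation and strand setting are not given in the sources used here. Whole reads were recovered from the steps of each column (100.0% of values within 0.1 of a whole read). The 5 rows that name no gene held 22.4% to 26.2% of reads and were left out, as were 3 columns not matched to a sample.

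With limma 3.58.1 (R 4.3.3, trended prior), log2(normalized reads + 1) was fitted over the 15 libraries as a mean for each group, and p-values were adjusted over 12673 of 24520 genes. The filter asked for 10 normalized reads or more in 3 or more libraries. The log2 scale with a pseudocount understates changes of low genes. The fits were tested on simulated data. As alternatives, 8 settings were tried (pseudocount 0.1, pseudocount 5, unfiltered genes, quantile scaling, the compared groups fitted alone, a replicate block, and edgeR 4.0.16 with TMM or DESeq2 1.42.0 on recovered reads), and each library was left out in turn. Levels per kb use GENCODE vM21 exon lengths. A floor of 3 reads per library covers counting error only. The members and the lists of pathway and marker genes were chosen with earlier results of these data known. Beyond the members, the genes eligible to be named were, per pathway list, up to 4 with the smallest product of the adjusted p of both dKO comparisons among genes called in at least 1 clone, up to 2 called for LAP* against dKO cells, and the 3 genes with the highest r to each of the 3 members with the largest mean dKO difference. Python 3.11.15 (pandas 2.3.3, numpy 2.4.6, matplotlib 3.10.9) was used for tables and plots. Results of 2 listed genes are not reported here.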

Additional observations from a re-analysis of the deposited data

Results flagged for a closer look

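The dKO minus WT difference was called different between the clones by its own limma test for 3 of the 9 genes. Values are the C2 difference minus the C1 difference on the log2 scale. Over all genes tested, 15.1% were called higher and 14.3% lower in this test, so the count of 3 is no result about the set. Tgfb1 gave 0.39 (adjusted p = 0.011), with dKO libraries below WT libraries in C1 and above them in C2, and 0.24 with quantile normalization, which lost the call (adjusted p = 0.094). Smad4 gave 0.42 (adjusted p = 0.038), with -0.22 in C1 and 0.21 in C2, a call lost under 3 of the 8 alternatives and without any 1 of 7 libraries. Smad7 gave -1.09 (adjusted p = 0.013), with 1.49 in C1 and 0.39 in C2. Groups of 3 libraries were too small for a test of single outlying samples.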

How the results depend on the processing

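Of 54 pairs of gene and comparison, 27 were called, and 15 of these were called in the same direction under all 8 alternatives and all 15 leave-one-out fits. These include Tgfbr2 in each comparison except the difference between clones, Smad3 and Smad7 in C1 dKO cells, Smad3 and Ski in C2 dKO cells and Smad7 in the difference between the clones. Depth limits Smad3 and Smad7 most, with as few as 26 and 33 reads in a library.

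The number of members called stayed within 1.5 times under the alternatives, with these exceptions, whose cause was not tested. Quantile normalization left 1 for the difference between the clones, and a pseudocount of 5, edgeR and DESeq2 each gave 2 for LAP* against dKO cells. Without single libraries the number ran from 3 to 6 in C1 dKO cells, from 3 to 6 in C2 dKO cells and from 1 to 2 for LAP* against dKO cells.

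The values that changed sign were small and never called. For LAP* against dKO cells quantile normalization gave 0.04 for Smad3 and 0.01 for Smad4, and edgeR gave 0.00 for Smad4. Leaving out single libraries gave, for LAP* against dKO cells, -0.11 to 0.02 (Tgfb1), -0.12 to 0.17 (Tgfbr1), -0.05 to 0.03 (Smad3), -0.08 to 0.08 (Smad4) and -0.19 to 0.03 (Skil). It gave, for the difference between the clones, -0.01 to 0.25 (Tgfbr1), -0.24 to 0.03 (Tgfbr2), -0.4 to 0.01 (Ski) and -0.12 to 0.3 (Skil), and for WT cells of C2 against C1, -0.26 to 0.14 (Ski).

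Same-numbered libraries shared only a number: their deviations from the group means correlated at -0.319 to 0.297 (median 0.016) and those of other pairs at -0.252 to 0.332 (median -0.022). The replicate block left 6 called members in each dKO comparison and changed 1 call among the members, Smad4 in the difference between the clones (0.42, adjusted p = 0.058).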
